A study of Mus musculus with 15 samples.

Results

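The expression of 10 marker genes of macrophages and other leukocytes was followed in mouse endometrial epithelial organoids: *Ptprc*, *Lyz2*, *Adgre1*, *Csf1r*, *Cd68*, *Cd74*, *H2-Aa*, *H2-Ab1*, *Tyrobp* and *Fcer1g*. All 10 were among the 16729 genes of the expression table. The genes were chosen by symbol with the levels of these same libraries already known, so their levels are given as a description and no p-value is read for them. Tests are read only for the genes of other lists, grouped by function; these lists too were drawn up with earlier results of these libraries known.

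RNA-seq was performed on 4 groups: control + vehicle with 3 libraries (n = 3), control + A83-01 (n = 4), *Smad2/3* cKO with vehicle (n = 4) and *Smad2/3* cKO + A83-01 (n = 4). All 15 libraries came from adult mice with the genotype *Smad2* flox/flox and *Smad3* flox/flox of mixed strain background (C57BL/6J with 129S5/SvEvBrd). The cKO mice carried *Ltf*-cre in addition, which is driven by the lactoferrin promoter and is active in the uterine epithelium. Per the study's methods, mice were given estradiol at weaning to induce it, and these methods do not limit the treatment to the cKO mice. The vehicle was DMSO, and A83-01, an inhibitor of the type 1 TGFβ receptors ALK4, ALK5 and ALK7, was used at 500 nM. Uterine epithelial sheets were separated by hand after trypsin, dissociated and grown in Matrigel for 3 to 5 passages, in a medium with EGF, FGF-10, HGF and conditioned WNT3a, R-Spondin and Noggin that all groups shared. The number in a sample's description recurs: 1 number stands for both genotypes, and all 3 numbers of control + vehicle also occur in control + A83-01. Normalized counts, which are estimated reads per gene divided by 1 size factor per library, summed to 20241771 to 24423127 per library. The reads behind them could only be estimated roughly, from the spacing of low values, at 18400000 to 23400000 in 14 libraries and 43300000 in *Smad2/3* cKO + A83-01 replicate 3, so a gene listed at 0 may still have been present at up to about 1.61 to 3.88 normalized counts (3 reads).

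The markers stand for different parts of leukocyte biology. CD45, the product of *Ptprc*, is a phosphatase on the surface of nucleated blood cells, and CSF1R is the receptor for CSF1 and IL-34 on which the survival of most tissue macrophages depends. TYROBP and FCER1G are small membrane adaptors that carry immunoreceptor tyrosine-based activation motifs (ITAMs) and signal through the kinase SYK, and H2-Aa and H2-Ab1 are the chains of the class II molecule I-A, which assembles on the invariant chain CD74 in antigen-presenting cells. In the uterus these cells lie mainly in the stroma beneath the epithelium, while CD68, a lysosomal membrane protein, and CD74 can also be made by epithelial cells.

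The promoters of 4 genes that were high together in 1 library are shown, as RefSeq start sites place them on GRCm38.p6, from 250 bases before the start to 50 after it. They are 2 class II genes, *H2-Aa* (chr17:34287774-34288073, minus strand) and *H2-Eb1* (chr17:34305617-34305916, plus strand), and 2 genes of phagocytes, *Lyz2* (chr10:117282223-117282522, minus strand) and *C1qb* (chr4:136886151-136886450, minus strand). Each is written 5′ to 3′ on the strand of its gene. In the class II genes, capitals mark GCAAC, the core of the X1 box, and ATTGG, the Y box. In the others they mark AGGAAGT, a core bound by ETS factors such as PU.1. Both strands were searched, so a capital run may be the reverse complement.
H2-Aa: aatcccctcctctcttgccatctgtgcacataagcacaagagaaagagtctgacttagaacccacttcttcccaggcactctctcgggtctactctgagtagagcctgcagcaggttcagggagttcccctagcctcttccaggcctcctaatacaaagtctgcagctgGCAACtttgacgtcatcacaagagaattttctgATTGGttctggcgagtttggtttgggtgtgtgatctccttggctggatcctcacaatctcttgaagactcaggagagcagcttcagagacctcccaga
H2-Eb1: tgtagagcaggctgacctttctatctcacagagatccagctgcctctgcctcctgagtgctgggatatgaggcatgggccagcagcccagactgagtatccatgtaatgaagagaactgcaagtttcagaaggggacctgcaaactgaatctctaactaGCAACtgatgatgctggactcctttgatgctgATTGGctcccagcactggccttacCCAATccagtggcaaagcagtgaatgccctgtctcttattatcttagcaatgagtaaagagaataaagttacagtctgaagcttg
Lyz2: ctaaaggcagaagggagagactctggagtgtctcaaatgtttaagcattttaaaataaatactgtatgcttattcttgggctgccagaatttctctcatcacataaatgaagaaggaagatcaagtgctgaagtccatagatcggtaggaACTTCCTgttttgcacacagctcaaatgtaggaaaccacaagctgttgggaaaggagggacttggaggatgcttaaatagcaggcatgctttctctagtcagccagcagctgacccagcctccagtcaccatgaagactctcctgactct
C1qb: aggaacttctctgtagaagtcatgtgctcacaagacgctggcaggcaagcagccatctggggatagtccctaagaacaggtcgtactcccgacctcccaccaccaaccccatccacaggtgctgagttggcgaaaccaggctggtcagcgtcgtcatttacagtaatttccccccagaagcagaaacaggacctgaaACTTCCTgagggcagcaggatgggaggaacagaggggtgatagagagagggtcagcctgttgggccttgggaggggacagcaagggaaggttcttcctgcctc
GCAAC was found in 35.2% of 32851 mouse promoters of this length, ATTGG in 37.4% and AGGAAGT in 9.35%. In *H2-Aa* and *H2-Eb1* the X1 core was followed by the Y box on the same strand, 33 and 32 bases further on from first letter to first letter. That order within 40 bases, a window set after these promoters were read, occurred in 0.758% of all promoters. Of the markers, 5 had a promoter in the table (*Ptprc* with 2 start sites, *Lyz2*, *Cd68*, *H2-Aa* and *Fcer1g*). AGGAAGT was found in both *Ptprc* windows and in that of *Lyz2*, but not in those of *Cd68*, *H2-Aa* and *Fcer1g*. The *Cd68* window held GCAAC 2 times and ATTGG 3 times. A match is a run of letters and not a measured binding site.

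*Smad2/3* cKO replicate 2 stood apart from the other 14 libraries. In that library all 10 markers were above 3 normalized counts and together reached 14145, whereas the other libraries had 4 to 8 of them above 3 and a sum between 1420.1 and 8770.5, most of it *Cd68* in each. There 7 of the 10 (*Lyz2*, *Adgre1*, *Cd74*, *H2-Aa*, *H2-Ab1*, *Tyrobp* and *Fcer1g*) were at 20 or more and at more than 10 times their level in every other library. The same held for 8 of the 21 other macrophage and monocyte markers in the table, 3 of 20 other pan-leukocyte markers, 2 of 15 ITAM partners and kinases and 2 of 17 class II pathway genes. Across the whole table, 43 genes were at 20 or more in this library and at 3 or less in each of the other 14, a pair of thresholds set after the values were seen, against 0 to 2 such genes in any other library. Of these 43 genes, 16 are in the lists and 27 are not; among the latter, picked out after their values were seen, were the complement receptors *C3ar1* (83.2) and *C5ar1* (63.9) and the chemokines *Ccl3* (34.0) and *Ccl4* (40.1). In bulk libraries more or fewer cells of a type and more or less RNA per cell cannot be told apart. Group means, calls and correlations between markers that rest on this library are given with and without it. Its depth (about 23400000 estimated reads) was within the range of the others, and *Smad2/3* cKO + A83-01 replicate 1, which carries the same description number, had these 7 markers at 0 to 54.6.

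**Figure D1:**
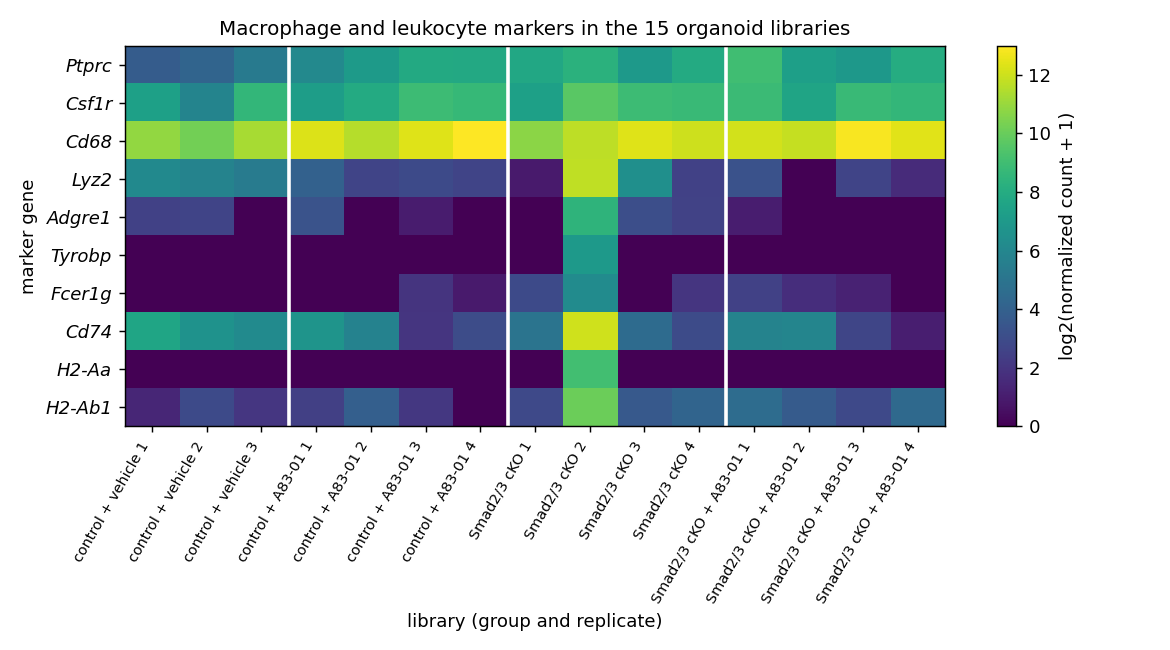
Color shows log2(normalized count + 1) of the 10 markers (rows) in the 15 libraries (columns, white lines between groups). *Smad2/3* cKO replicate 2 is the highest column in 8 of the 10 rows, with *Cd74* at 4237 and *H2-Aa* at 523, while *H2-Aa* and *Tyrobp* are at 0 in the other 14 columns and *Cd68* is at 1180.0 normalized counts or more in all.

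**Figure D2:**
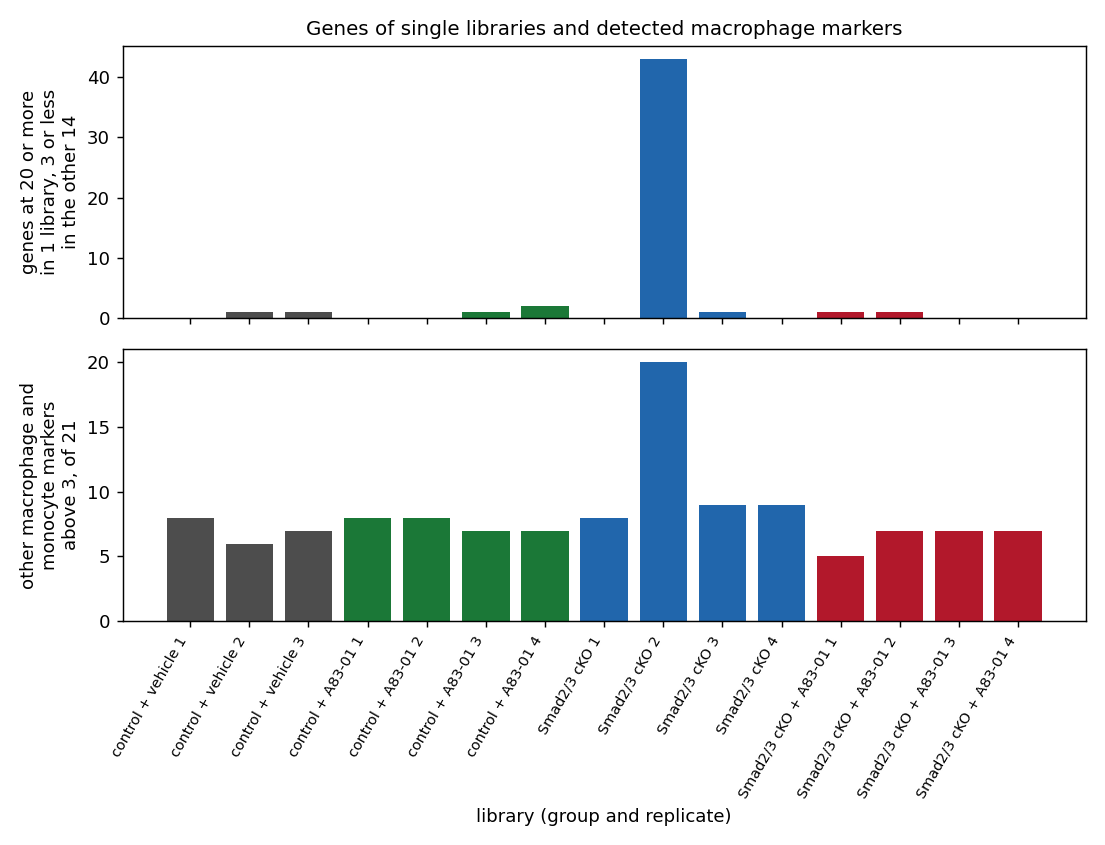
Bars show, per library, the number of genes at 20 or more there and at 3 or less in the other 14 (top) and how many of 21 other macrophage and monocyte markers were above 3 normalized counts (bottom), colored by group. *Smad2/3* cKO replicate 2 has 43 and 20, and the other libraries 0 to 2 and 5 to 9.

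Among the surface and granule markers of macrophages, *Lyz2* (chromosome 10, 117277331 to 117282321, minus strand; gene positions are on GRCm38), which encodes the lysozyme of myeloid cells, was at 70.8, 54.3 and 41.2 normalized counts in control + vehicle and at 15.1, 5.39, 6.57 and 5.24 in control + A83-01. In the *Smad2/3* cKO group it was at 0.940, 3372, 86.9 and 4.79, and in *Smad2/3* cKO + A83-01 at 8.73, 0, 5.39 and 2.04. The 3 control + vehicle libraries were thus above all 8 libraries with A83-01, and the *Smad2/3* cKO libraries with vehicle spread across the whole range. Its near-identical neighbor *Lyz1* was not in the table used here, so how reads were split between the 2 copies is uncertain. *Adgre1* (chromosome 17, 57358691 to 57483527, plus strand), which encodes the macrophage antigen F4/80, was at 351 in *Smad2/3* cKO replicate 2 and between 0 and 9.01 in the other libraries, with 7 of them at 0. No group other than *Smad2/3* cKO had a library in which *Adgre1* exceeded 10.

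Both ITAM adaptors were highest in the same library. *Tyrobp* (chromosome 7, 30413760 to 30417585, plus strand) was at 128 in *Smad2/3* cKO replicate 2 and listed at 0 in the other 14 libraries, so no fold is given. *Fcer1g* (chromosome 1, 171229572 to 171234365, minus strand) was at 75.0 in that library and at 6.46 or less elsewhere, with 0 in all 3 control + vehicle libraries. Of their partners, the lectin receptor *Clec4n*, which signals through FCER1G, was at 403 in the same library and at 0 in the other 14. The Fc receptor *Fcgr3* was at 157 there and at 16.6 to 101 in the others. *Syk*, the kinase that both adaptors recruit, did not follow them: it was at 111, 134 and 127 in control + vehicle, at 13.6 to 26.5 in control + A83-01, at 10.6, 42.7, 52.4 and 4.25 in *Smad2/3* cKO and at 3.31 to 29.3 in *Smad2/3* cKO + A83-01.

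Among the class II genes, *H2-Aa* (chromosome 17, 34282744 to 34287823, minus strand) was at 523 in *Smad2/3* cKO replicate 2 and at 0 in the other 14 libraries. *H2-Ab1* (chromosome 17, 34257689 to 34269419, plus strand) was at 1071 there; it was at 1.62, 6.46 and 3.19 in control + vehicle, at 4.45, 14.4, 3.23 and 0 in control + A83-01, at 6.26, 11.4 and 17.1 in the remaining *Smad2/3* cKO libraries and at 23.3, 12.2, 6.37 and 20.6 in *Smad2/3* cKO + A83-01. *H2-Eb1*, the β chain of the second class II molecule, was at 451 against 0 to 13.5, the class II transactivator *Ciita* at 21.9 against 0 to 4.73, and the invariant chain protease *Ctss* at 186 against 0 to 4.64. Other parts of the pathway were not restricted in this way. *H2-DMa*, a chain of the peptide exchange factor, was at 169.8 in that library and at 47.6 to 178 in the others, and *Lgmn*, a lysosomal protease, at 3655 against 1538 to 5884.

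*Cd74* (chromosome 18, 60803848 to 60812652, plus strand) was the class II member with a value above 0 in every library. Its lowest values, 2.94 and 1.12, did not exceed 3 normalized counts. It was at 196, 98.8 and 74.4 in control + vehicle, at 105, 53.6, 2.94 and 7.11 in control + A83-01, at 30.9, 4237, 22.3 and 6.72 in *Smad2/3* cKO and at 54.6, 60.1, 5.56 and 1.12 in *Smad2/3* cKO + A83-01. The *Smad2/3* cKO mean with all 4 libraries was 1074. Without *Smad2/3* cKO replicate 2, the group means ran from 19.9 ± 12.2 (SD, n = 3) in *Smad2/3* cKO through 30.4 ± 31.3 (n = 4) in *Smad2/3* cKO + A83-01 and 42.2 ± 47.8 (n = 4) in control + A83-01 to 123 ± 64.4 (n = 3) in control + vehicle, and each neighboring pair overlapped. Over these 14 libraries the genes most alike in pattern, among 13048 genes with a mean of at least 10, were *Saa3* (r = 0.95), *Relb* (r = 0.94) and *Lcn2* (r = 0.94), an acute phase protein, a subunit of NF-κB and lipocalin 2. *Saa3* was at 3947, 1955 and 1580.4 in control + vehicle and *Lcn2* at 335526, 241038 and 177188, and they were at 157 and 59191 in control + A83-01 replicate 3, where *Cd74* was at 2.94. With all 15 libraries the 3 most alike genes were *Map2k6*, *Sgsm3* and *Ptpn18* instead (r = 0.87 to 0.91), so *Smad2/3* cKO replicate 2 decided which genes resembled *Cd74*.

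*Ptprc*, *Csf1r* and *Cd68* were above 10 normalized counts in all 15 libraries. *Ptprc* (chromosome 1, 138062861 to 138175708, minus strand) was at 12.5, 17.4 and 38.5 in control + vehicle. It was at 68.5, 136, 236 and 230.5 in control + A83-01, at 223, 309, 123 and 248 in *Smad2/3* cKO and at 514, 161, 119 and 265 in *Smad2/3* cKO + A83-01. Every library of the other 3 groups was above every control + vehicle library, while those 3 groups overlapped one another. The means were 22.8 ± 13.8 (SD, n = 3), 168 ± 80.6 (n = 4), 225 ± 77.4 (n = 4) and 265 ± 177 (n = 4) in the same order, and that of *Smad2/3* cKO was 198 ± 66.1 (n = 3) without replicate 2. 

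*Csf1r* (chromosome 18, 61100598 to 61132149, plus strand) was at 166, 58.0 and 384 in control + vehicle and at 149, 242, 473 and 412 in control + A83-01. It was at 167, 822, 481 and 440.4 in *Smad2/3* cKO and at 468, 193, 444 and 380.5 in *Smad2/3* cKO + A83-01. All 4 groups overlapped, and the highest value was again *Smad2/3* cKO replicate 2. *Cd68* (chromosome 11, 69664213 to 69666153, minus strand) was at 1916, 1180.0 and 2474 in control + vehicle, at 5018, 3024, 5162 and 8115 in control + A83-01, at 1726, 3258, 5184 and 4083 in *Smad2/3* cKO and at 4421, 3678, 7407 and 5487 in *Smad2/3* cKO + A83-01. The libraries with A83-01 were all above those of control + vehicle, the *Smad2/3* cKO libraries with vehicle overlapped both, and *Smad2/3* cKO replicate 2 lay within the range of its group.

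**Figure D3:**
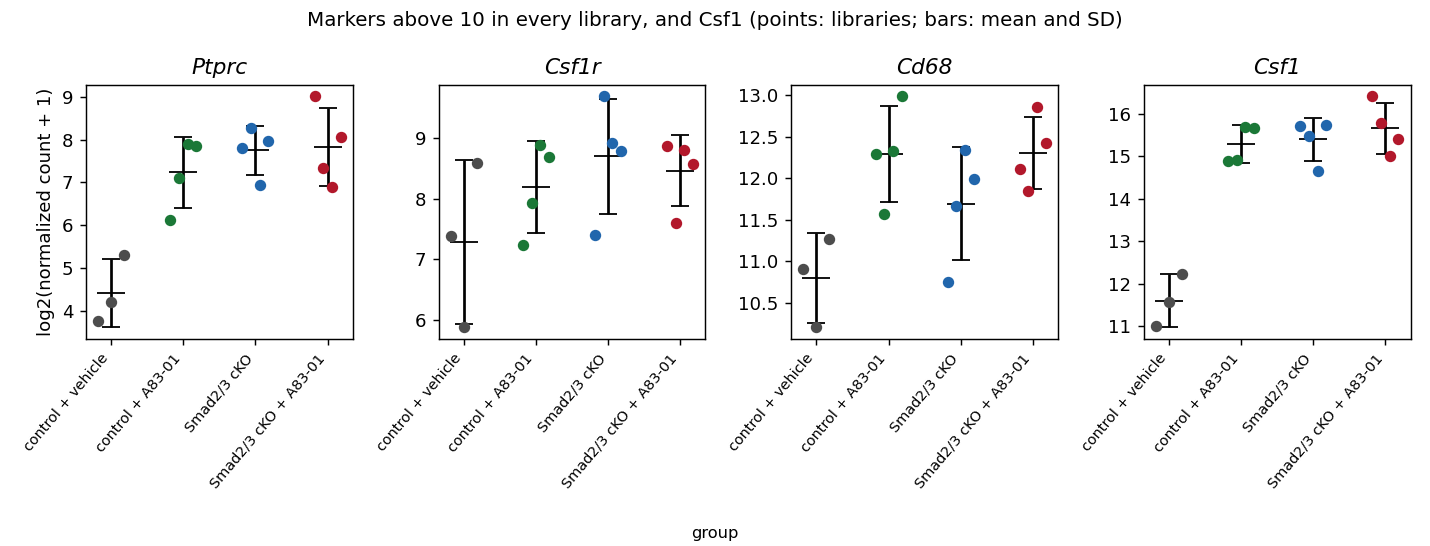
Points are single libraries of the 4 groups on a log2(normalized count + 1) axis that differs between panels, with the mean and SD of each group as bars. *Ptprc* and *Csf1* are lowest in all 3 control + vehicle libraries, *Cd68* is higher in the 8 libraries with A83-01 than in control + vehicle, and *Csf1r* overlaps between all groups.

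Per kb of exon, the median level over the 15 libraries was 3248 for *Cd68*, 66.5 for *Csf1r*, 31.9 for *Cd74*, 8.80 for *Ptprc*, 4.99 for *Lyz2* and 2.52 for *H2-Ab1*, and 1.02 or less for *Fcer1g*, *Adgre1*, *H2-Aa* and *Tyrobp*. *Cd68* was thus the most abundant marker on this scale by a wide margin, and *Cd68* and the monocyte receptor *Cd14*, at 4232 to 48022 normalized counts, were both measured in the 14 libraries where *Tyrobp* and *H2-Aa* were listed at 0.

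The 10 markers did not vary as 1 set. Over the 15 libraries, Pearson r of the log2 values ranged from 0.35 to 1.00 (median 0.73) for the 21 pairs among *Lyz2*, *Adgre1*, *Cd74*, *H2-Aa*, *H2-Ab1*, *Tyrobp* and *Fcer1g*, a set named after the values were seen. Without *Smad2/3* cKO replicate 2 the range for the 10 pairs that still varied was -0.61 to 0.65 (median -0.04), and 11 pairs had no value because *H2-Aa* and *Tyrobp* were constant at 0. The 3 pairs among *Ptprc*, *Csf1r* and *Cd68* had r between 0.58 and 0.67 with all libraries and between 0.61 and 0.75 without that library. Between the 2 sets r ranged from -0.51 to 0.57 (median 0.01) with all libraries. Without that library it ranged from -0.69 to 0.65 (median -0.18) over the 15 pairs that still varied. The libraries share description numbers and groups, so these values describe the table and carry no p. As deviations from the group means, *Csf1r* and *Cd68* kept r = 0.68 and *Ptprc* and *Csf1r* r = 0.53, while *Ptprc* and *Cd68* had r = 0.01. Spearman rho over the 15 libraries was 0.51, 0.60 and 0.37 for the same pairs. Leaving out the 2 libraries farthest from the median gave r = 0.58, 0.37 and 0.14.

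**Figure D4:**
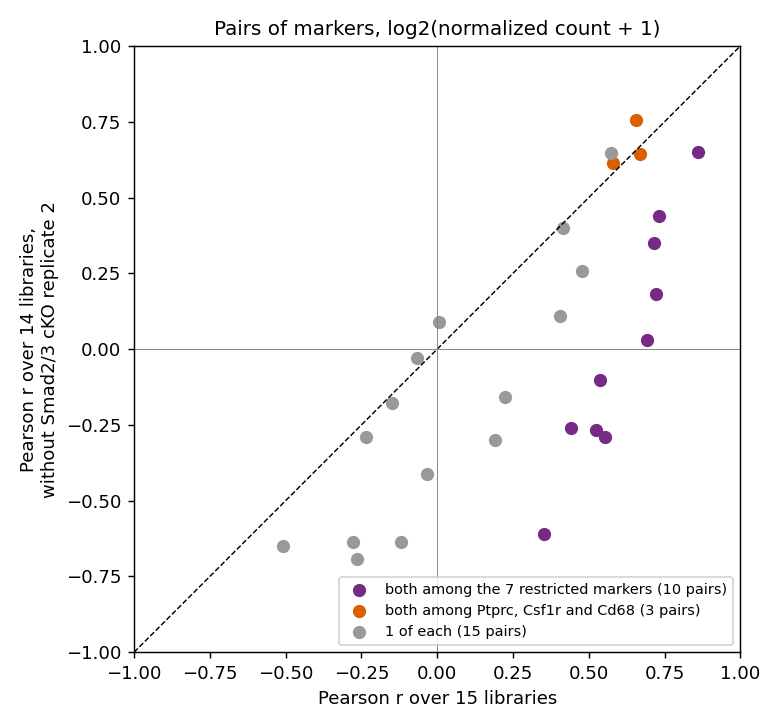
Each point is a pair of markers, with Pearson r over 15 libraries on the x axis and over the 14 libraries without *Smad2/3* cKO replicate 2 on the y axis (28 pairs with both values). The 10 pairs among *Lyz2*, *Adgre1*, *Cd74*, *H2-Ab1* and *Fcer1g* all lie below the dashed line of equal r. The plot labels them as restricted markers, although *Cd74* was above 0 in every library. The 3 pairs among *Ptprc*, *Csf1r* and *Cd68* lie near the line.

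The genes most alike in pattern were listed for each marker with a mean of at least 10. For *H2-Aa* they were *Clec4n*, *Mmp8* and *C1qc*, each at 0 in the other 14 libraries (r = 1.00). *Marco* and *C1qa* tied with them, since any gene above 0 in *Smad2/3* cKO replicate 2 alone has r = 1.00 with *H2-Aa*. For *Lyz2* they were *Adgre1* (r = 0.86), the macrophage elastase *Mmp12* (r = 0.85), at 634 in *Smad2/3* cKO replicate 2 and at 8.60 or less elsewhere, and *Mlxip* (r = 0.85), which was at 888 or more in every library. Without that library they were *Mcu*, *Zfp553* and *Nudt16* instead (r = 0.89 to 0.90). For *Adgre1* they were *Lyz2* (r = 0.86), *Mmp12* (r = 0.84) and *H2-Aa* (r = 0.82), which tied with the other genes seen in that library alone. For *H2-Ab1* they were *Ccl6* (r = 0.88), *Plbd1* (r = 0.87) and *Wfdc17* (r = 0.84). Without *Smad2/3* cKO replicate 2, *Adgre1* and *Lyz2* had r = 0.65, *H2-Aa* had no r, and no such genes were sought for *Adgre1*, *H2-Ab1* and *H2-Aa*. For *Cd68* the most alike were *Asrgl1* (r = 0.94), *Rab29* (r = 0.93) and *Tst* (r = 0.92), for *Csf1r* *Bbx*, *Sema6b* and *Thsd4* (r = 0.88 to 0.90) and for *Ptprc* *Cys1*, *Sv2a* and *Atp7b* (r = 0.96 to 0.97).

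Between control + A83-01 and control + vehicle, which asks what the inhibitor changes in organoids with intact SMAD2 and SMAD3, limma on log2(normalized count + 1) called 295 of 13009 genes (2.27%) at an adjusted p below 0.01 and a change of over 1.4-fold in either direction. None of the 5 markers that reached a mean of 10 was called, and *Ptprc* and *Cd68* were with the replicate block; nothing is read from either count, since the markers were chosen with these levels known. Their log2 fold changes were 2.82 (SE 0.56) for *Ptprc*, 1.5 (SE 0.35) for *Cd68*, 0.90 (SE 0.63) for *Csf1r*, -2.46 (SE 1.08) for *Cd74* and -2.72 (SE 0.56) for *Lyz2*. The description numbers pair these libraries, so values with the replicate block are given where they change a call. Of the other listed genes, 8 of 108 tested (7.41%) were called. The ligand of CSF1R, *Csf1*, rose from 2047, 3014 and 4823 to 30379.9, 30577, 52939 and 51989.5 (log2 fold change 3.69, SE 0.33, adjusted p = 0.000648), and its other ligand *Il34* was at 577, 757 and 257 before and 343, 266, 341 and 321 after. Of 15 lysosome genes, 4 were called higher and none lower: the protease *Ctsb*, from 98672, 80624 and 131151 to 386329 to 728789 (log2 fold change 2.36, SE 0.34, adjusted p = 0.00498), *Ctsz*, *Scarb2* and *Lamp2* (1.61, 1.33 and 1.07). *Ctsl* (-0.93, SE 0.26) and *Lipa* (-1.04, SE 0.33) had negative log2 fold changes and were not called. The median of the 15 was 0.26, against -0.02 over all genes tested. *Laptm5*, a lysosomal membrane protein of leukocytes, fell by 4.51 on the log2 scale (1116, 207 and 299 against 9.57 to 31.1; adjusted p = 0.00415) and *Syk* by 2.76 (adjusted p = 0.005; 0.0118 with the replicate block). *Prtn3*, a neutrophil protease, rose by 4.03, while the neutrophil genes *S100a8* and *S100a9* were not called. With the block *Cx3cl1*, a chemokine for monocytes, was called too (adjusted p = 0.00665). The number of calls fell without some libraries: 1 of the listed genes was called without control + vehicle replicate 1 or replicate 2, 2 without replicate 3, 3 without control + A83-01 replicate 3 and 2 without replicate 4, and *Csf1* was called in all 7 fits that left out 1 library. In these fits and with the replicate block, log2 fold changes ranged over 2.20 to 2.55 for *Ctsb* and 1.26 to 1.41 for *Scarb2*. The ranges were 0.98 to 1.12 for *Lamp2* and -2.95 to -2.65 for *Syk*. They were wider for *Prtn3* (3.57 to 4.52) and *Laptm5* (-5.00 to -3.79). Calls were lost in 6 of the 7 fits for *Ctsb* and *Ctsz* and in 5 for *Lamp2* and *Syk*. They were lost in 4 for *Prtn3* and *Laptm5* and in 3 for *Scarb2*.

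Between *Smad2/3* cKO and control organoids with vehicle, which asks what loss of the SMADs changes, 970 of 13149 genes (7.38%) were called, and 652 of 13120 (4.97%) without *Smad2/3* cKO replicate 2, of which 604 were shared. *Smad2* was at 1335, 1132 and 1045 in control + vehicle and at 924, 863, 892 and 821 in *Smad2/3* cKO (log2 fold change -0.41, SE 0.14, adjusted p = 0.0656), and *Smad3* at 1532, 1741 and 1599 against 1169.6, 1640.1, 1516 and 1977. *Ltf*, whose promoter drives the Cre, was at 600426, 429014 and 394181 against 81420.4, 208980.0, 194039 and 55396. The values cover whole genes, of which the floxed part is a fraction, so they do not check the deletion. All 10 markers reached a mean of 10 with the 7 libraries, but only 5 did without *Smad2/3* cKO replicate 2. Of the markers 1, *Ptprc*, was past the call thresholds in both fits, from which nothing is read because the markers were chosen with these levels known. Its log2 fold change was 3.33 (SE 0.46) and 3.15 without that library. For *Lyz2* the fold change moved from -0.37 (SE 2.13) to -2.47 and for *Cd74* from -0.70 (SE 1.81) to -2.67, whereas *Cd68* stayed at 0.90. Of the 5 markers tested only with the library, *H2-Ab1* had a log2 fold change of 3.07 (SE 1.55) and *Adgre1* of 1.82 (SE 1.77), and no fold is given for *H2-Aa*, *Tyrobp* and *Fcer1g*, which were listed at 0 in all control + vehicle libraries.

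Of the other listed genes, 18 of 124 tested (14.5%) were called in this comparison, and 16 of the 18 were called without *Smad2/3* cKO replicate 2 as well. *Csf1* rose to 53274, 45553, 25595 and 54824 (log2 fold change 3.79, SE 0.34, adjusted p = 0.000304), and all 4 libraries were above control + vehicle. None of the 15 lysosome genes was called lower and 5 were called higher, among them *Ctsb* (2.59), *Scarb2* (1.60), *Ctsz* (1.58) and *Lamp2* (1.30), with a median of 0.44 over the 15 against 0.00 over all genes. In the class II pathway *Ifi30*, a lysosomal thiol reductase, rose (456, 389 and 478 against 1266, 976, 1026 and 1249; adjusted p = 0.00112), *Lgmn* rose by 1.03, and *Cd40*, a receptor for T cell help, fell by 2.5 (326, 281 and 193 against 35.6, 77.2, 69.0 and 22.0; adjusted p = 0.00696). *Fcgr2b*, the inhibitory Fc receptor and the 1 macrophage marker of 14 tested that was called, went from 4.46, 0.881 and 2.75 to 93.6, 136, 28.3 and 62.6 (adjusted p = 0.00351), and missed the threshold without *Smad2/3* cKO replicate 2 (adjusted p = 0.01005). *Il2rb*, a subunit of the interleukin 2 receptor listed at 0 in all control + vehicle libraries, was at 63.2, 29.4, 58.5 and 248 (adjusted p = 0.00137). Of 11 pan-leukocyte markers tested *Vav1* fell (3.63 on the log2 scale), and *Laptm5*, at 118 in *Smad2/3* cKO replicate 2 and at 0 to 3.03 in the other 3, was not called with all 7 libraries and was called without that one (fall of 7.43, adjusted p = 0.00155) or when all 4 groups were fitted. The interferon gamma receptor *Ifngr1* fell by 1.12, *Cx3cl1* by 1.44, the galectin *Lgals1* by 2.59, and the smooth muscle actin *Acta2* by 3.12, a call lost in 6 of the 7 fits that left out 1 library and with the replicate block, and *Prtn3* rose by 4.43. The replicate block also ended the calls of *Ctsb*, *Ifi30*, *Il2rb*, *Fcgr2b*, *Vav1*, *Lgmn*, *Cd40*, *Ifngr1*, *Cx3cl1*, *Lgals1* and *Prtn3*. Those of *Lgals1*, *Cx3cl1*, *Cd40* and *Fcgr2b* were each lost in 5 of the 7 fits that left out 1 library. The claudin *Cldn4* fell by 2.55 and missed the threshold without *Smad2/3* cKO replicate 2 (adjusted p = 0.0104). Without control + vehicle replicate 1 the number of listed genes called was 8, without replicate 2 it was 9, and without *Smad2/3* cKO replicates 1 and 4 it was 11 and 9; *Csf1*, *Ctsb*, *Scarb2*, *Ctsz*, *Lamp2*, *Ifi30* and *Il2rb* were called in each of the 7 fits.

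Between *Smad2/3* cKO + A83-01 and *Smad2/3* cKO, limma called 0 of 12998 genes (0%), 0 of 12950 (0%) without *Smad2/3* cKO replicate 2, and 554 at an unadjusted p below 0.05. All 10 markers reached a mean of 10 and 6 did without that library, and none was called, nor was any of 122 other listed genes. Of the other macrophage markers 14 were tested with that library and 4 without it. *Lyz2* went from -3.53 (SE 1.99) to -1.42, *Cd74* from -2.25 (SE 1.85) to -0.28, and *Ptprc* was at 0.08 (SE 0.45) and 0.26. Between *Smad2/3* cKO + A83-01 and control + A83-01, 3 of 12915 genes (0.0232%) were called, with none of the 5 markers tested and none of the 107 other listed genes among them. The log2 fold changes were 0.59 (SE 0.52) for *Ptprc*, 0.28 (SE 0.41) for *Csf1r*, 0.01 (SE 0.30) for *Cd68*, -0.49 (SE 1.34) for *Cd74* and 1.79 (SE 0.88) for *H2-Ab1*.

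Whether A83-01 acted differently in the 2 genotypes was tested as an interaction, and 72 of 13066 genes (0.551%) were called, or 57 of 13049 (0.437%) without *Smad2/3* cKO replicate 2, with 53 shared. None of the 8 markers tested was called. Without that library 5 markers were tested, and 5 other macrophage markers against 12 with it. Of 124 other listed genes *Csf1* was called (log2 difference -3.43, SE 0.50, adjusted p = 0.00243; 0.0064 without *Smad2/3* cKO replicate 2), a call that the replicate block ended (adjusted p = 0.0103). It rose 3.69 on the log2 scale with A83-01 in control organoids, where all 4 treated libraries were above all 3 untreated ones, and was at 86616, 55802, 33039 and 43609 in *Smad2/3* cKO + A83-01, overlapping *Smad2/3* cKO. Over the 15 libraries *Csf1* and *Ptprc* had r = 0.96 (rho = 0.81), 0.87 as deviations from group means and 0.88 without control + vehicle replicates 1 and 2, the libraries farthest from the *Ptprc* median. *Csf1* and *Csf1r* had r = 0.54 and 0.24 as deviations from group means.

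The label of the samples was checked against markers of other cell types. *Epcam*, which encodes an epithelial adhesion molecule, was at 19889 to 28844 in all 15 libraries, and all 12 epithelial markers were above 3 in each. In *Smad2/3* cKO replicate 2 *Epcam* was at 26744, within that range. The summed epithelial markers there, at 151994, lay near the low end of the 148986 to 343431 of the others (median 227630.5). Of 19 T and NK cell markers 4 were in the table, and the T cell receptor chain *Cd3e* was not among them; their sum was 174 in that library against 86.8 to 487 elsewhere, most of it the kinase *Lck*. Of 10 B and plasma cell markers 4 were in the table, summing to 338 against 126 to 459, mainly *Cd79b*. The immunoglobulin gene *Ighm* was at 15.3 there and at 0 in the other 14. The 7 neutrophil markers in the table summed to 878 against 374 to 7359, with *S100a8* highest at 4704 in *Smad2/3* cKO replicate 1, and *Mmp8* at 211 in *Smad2/3* cKO replicate 2 alone. The 6 mast cell and eosinophil markers summed to 1392 against 668 to 2755, nearly all of it *Gata2*, the 5 dendritic cell markers to 808 against 399 to 2012, mainly *Irf8*, the 10 stromal markers to 64.9 against 13.4 to 304, and the 4 endothelial markers to 25.8 against 27.2 to 72.2. The only red cell marker in the table, *Alas2*, was at 0 there and at most 5.22 elsewhere. Of the 21 other macrophage and monocyte markers, 20 were above 3 there and 5 to 9 in each of the other libraries, among them the complement genes *C1qa*, *C1qb* and *C1qc* at 155, 306 and 192 and the scavenger receptors *Marco* at 160 and *Msr1* at 143. Their sum of 25812 was nevertheless within the 4379 to 48110 of the others, since *Cd14*, the most abundant gene of the list in every library, made up 23759.8 of it. What part these transcripts had in the comparisons of *Smad2/3* cKO with other groups was not tested beyond leaving the library out.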

How the data were processed

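The labels and the study's methods describe organoid RNA amplified with a low-input SMART-Seq v4 kit and sequenced. The authors quantified reads with Salmon 1.4.0, and per the submitters' processing notes used DESeq2 1.32.0 and GRCm39; the deposited signal is 1 table of normalized counts, that is, estimated counts per gene divided by a size factor per library. Raw counts were not recovered: 11.4% to 23.3% of values below 12 fell within 2% of whole multiples of a common step, so no count model was fitted, and read totals inferred from that step are estimates. Of 16729 genes, 16697 had a symbol, of which 17 belonged to 2 identifiers each. Gene positions are from GRCm38 (GENCODE vM21), not from the authors' build, and served as names and lengths.

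Genes with a mean of at least 10 over the libraries compared were fitted with limma 3.58.1 (R 4.3.3, empirical Bayes with trend) on log2(normalized count + 1), a scale that understates changes of low genes. Calls needed an adjusted p (Benjamini-Hochberg) under 0.01 with a change of over 1.4-fold either way. Only the groups compared entered a fit, and all 4 entered the interaction. The alternatives covered the pseudocount, filter, scaling, trend, thresholds, blocks and leaving out each library.

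The members and lists were chosen with earlier results of these data known. Named genes were all members, the 3 most abundant and the called genes of each list, the 3 genes most alike to each member, and *Ltf*, *Smad2* and *Smad3*; others are named for single values seen in *Smad2/3* cKO replicate 2 or for their role, and were chosen after their values were seen. For control + A83-01 and control + vehicle, the shared description numbers pair the libraries: deviations of same-numbered libraries had a mean r of 0.40 (0.35 to 0.42) against -0.13 for others. Descriptive statistics used Python 3.11.15, pandas 2.3.3 and numpy 2.4.6, and figures matplotlib 3.10.9. Some results for single genes are not reported here.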

Additional observations from a re-analysis of the deposited data

Results flagged for a closer look

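In groups of 4 libraries, the gap between the highest library and the next exceeded Dixon's critical value for 7 markers in the *Smad2/3* cKO group, each time in replicate 2: *Lyz2* (3372), *Adgre1* (351), *Cd74* (4237), *H2-Aa* (523), *H2-Ab1* (1071), *Tyrobp* (128) and *Fcer1g* (75.0 normalized counts). In control + A83-01 the same held for replicate 1 in *Lyz2* (15.1) and *Adgre1* (9.01). Chance alone puts about 1 in 20 such groups past that value, but these markers were chosen with the levels known and vary together, so the gaps describe the libraries and test nothing. The effect of A83-01 on *Csf1* differed between the genotypes by -3.43 on the log2 scale in the interaction test (adjusted p = 0.00243 in limma, and 0.0103 with the replicate block, which ended the call).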

How the results depend on the processing

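No called value changed sign under any alternative run. Fold changes of markers that were within 1 SE of 0 did, among others the following. In *Smad2/3* cKO against control, *Lyz2* (-0.37) reached 1.12 without *Smad2/3* cKO replicate 1 and *Cd74* (-0.70) 0.36 without replicate 4, and without replicate 2 *H2-Ab1* in *Smad2/3* cKO + A83-01 against *Smad2/3* cKO went from -1.27 to 0.35 and *Csf1r* from -0.23 to 0.10. Leaving out 1 library each time, the calls in control + A83-01 against control + vehicle ranged from 49 to 312 genes (1 to 9 of the listed genes outside the markers), in *Smad2/3* cKO against control with vehicle from 280 to 992 (8 to 20), between the genotypes with A83-01 from 0 to 4, and in the interaction from 39 to 77 (1 to 2). The first fell to 53, 49 and 128 without control + vehicle replicates 1, 2 and 3 and to 140 and 116 without control + A83-01 replicates 3 and 4, and the second to 280 and 288 without control + vehicle replicates 1 and 2 and to 524 and 443 without *Smad2/3* cKO replicates 1 and 4.

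For control + A83-01 against control + vehicle the calls moved to 146 (3 listed) with no filter on low values, 978 (16) with the description number as a correlated block, 443 with the number series as a covariate, 642 with all 4 groups fitted, 955 (15) at an adjusted p below 0.05 and, for the listed genes, 5 without the trend. For *Smad2/3* cKO against control they moved to 452 (9) without the trend and 2410 (38) at 0.05. Between the genotypes with A83-01 they moved to 0 with no filter, 1 without the trend, 72 (1) with the number series and 5 with all groups. For the interaction they moved to 154 (3) with the description number and 208 (5) at 0.05, and the listed genes to 2 with a pseudocount of 10, a mean of at least 50, the same total, no trend or the number series and to 3 with quantile scaling. The cause was not tested. The same total per library shifted the median of all genes in the first comparison to -0.12 on the log2 scale.

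With the replicate block, the pairing gave 399 calls (9 listed) in control + A83-01 against control + vehicle. Elsewhere the samples share only a number (mean r of 0.06, 0.13 and -0.02), and the replicate block gave 211 calls (6 listed) for *Smad2/3* cKO against control, 0 for both comparisons with *Smad2/3* cKO + A83-01 and 63 for the interaction, where *Csf1* had an adjusted p of 0.0103 in limma and *Scarb2* was called instead. The description number as a block was not run for the other 3 pairwise comparisons, since no correlation could be estimated. At this depth 3 reads correspond to 1.61 to 3.88 normalized counts, which limits what a value of 0 shows.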
